A study of Mus musculus with 6 samples.

Results

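Metallothioneins are small cysteine-rich proteins that hold zinc, copper and other metals, and the genes examined here are the mouse metallothionein genes Mt1 and Mt2 with 3 genes of zinc sensing and transport. Mtf1 encodes the metal-responsive transcription factor MTF1, Slc30a1 the zinc exporter ZnT1 of the plasma membrane, and Slc39a14 the importer ZIP14, which carries zinc, iron and manganese. These 5 genes were chosen by symbol from 53090 rows per library, and all 5 passed the filter on low counts. Mt2 passed only through the liver libraries, so its difference is described below as a bound. The cells were neutrophils from mice given a DDC diet (3,5-diethoxycarbonyl-1,4-dihydrocollidine, which injures bile ducts) for 1 week. They came from liver (3 libraries) and from blood (3 libraries). All 6 libraries shared the diet and the selection by Ly6G beads. Liver cells were cleared on a Percoll gradient and blood cells by lysis of red cells, so preparation and tissue cannot be told apart. The labels give no strain, sex or age. The design text counts 3 mice but ties no library to a mouse, so p-values reflect only how far these libraries spread, which may be technical.

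In the textbook account, a rise of free zinc in the cell is sensed by the zinc fingers of MTF1, which then binds metal response elements in the promoters of Mt1, Mt2 and Slc30a1. The products bind or expel the metal. Metallothionein genes also respond to glucocorticoids, to interleukin 6 through STAT3 and to oxidative stress, and in hepatocytes they and Slc39a14 are acute-phase genes. Neutrophils carry zinc mainly bound to the calprotectin subunits S100A8 and S100A9.

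The promoters of Mt1, Mt2 and Slc30a1 are shown because they carry the letters that MTF1 is known to read. They are from RefSeq (GRCm38.p6), 250 bases before to 50 bases after the annotated start, on the plus strand. Capitals mark matches, on either strand, to the core of the metal response element, searched as TGCACNC and TGCGCNC.
Mt1, chr8:94178839-94179138: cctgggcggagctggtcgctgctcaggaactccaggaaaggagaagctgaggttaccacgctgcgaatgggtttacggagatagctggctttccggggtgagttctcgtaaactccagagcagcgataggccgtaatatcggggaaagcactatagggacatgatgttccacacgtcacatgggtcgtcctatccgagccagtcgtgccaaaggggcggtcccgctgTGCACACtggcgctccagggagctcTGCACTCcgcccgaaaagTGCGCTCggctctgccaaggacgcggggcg
Mt2, chr8:94172368-94172667: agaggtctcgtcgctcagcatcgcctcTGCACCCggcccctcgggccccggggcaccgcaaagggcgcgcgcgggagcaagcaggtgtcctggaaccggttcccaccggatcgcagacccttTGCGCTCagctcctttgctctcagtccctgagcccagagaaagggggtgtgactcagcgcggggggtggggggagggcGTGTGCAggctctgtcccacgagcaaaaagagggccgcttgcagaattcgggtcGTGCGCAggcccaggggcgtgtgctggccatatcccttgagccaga
Slc30a1, chr1:191906531-191906830: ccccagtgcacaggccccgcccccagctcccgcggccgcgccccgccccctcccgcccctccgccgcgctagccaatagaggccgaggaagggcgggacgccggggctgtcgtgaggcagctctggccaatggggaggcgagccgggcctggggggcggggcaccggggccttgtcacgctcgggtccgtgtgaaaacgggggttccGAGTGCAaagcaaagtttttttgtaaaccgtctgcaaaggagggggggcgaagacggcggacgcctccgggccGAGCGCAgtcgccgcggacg
Mt1 held 3 matches, Mt2 held 4 and Slc30a1 held 2. Of 27025 mouse promoters of this length, 25.6% held at least 1 match, 7.11% at least 2, 2.00% at least 3 and 0.503% at least 4. Mt1, Mt2 and Slc30a1 are textbook carriers of the element, so these shares say nothing about the present libraries. In Mt1 the matches lie close together around the annotated start, while in Mt2 they are spread over the window. Bases outside these windows were not searched, so the layout depends on the start that was annotated. Mtf1 held 0 matches in its window, and the table of promoters did not cover Slc39a14. A match is a description of the letters and does not show that the factor was bound in these cells.

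In the liver libraries 4 of the 5 genes were higher than in blood, while Mtf1 itself was not called. The rises were 5.85-fold for Mt1, 7.76-fold for Slc39a14 and 2.58-fold for Slc30a1. For Mt2 the pooled counts gave at least 41.2-fold, a bound that covers counting error only. Over all 13458 genes tested by edgeR's quasi-likelihood test, 17.4% were called higher and 14.2% lower at a Benjamini-Hochberg adjusted p under 0.05. For the same 4 genes every liver library lay above every blood library, which was so for 25.8% of all tested genes. None of the 5 was called lower, by edgeR, DESeq2 or limma voom or at an unadjusted p under 0.05, and none lay wholly below blood, as 22.7% of tested genes did. The 5 genes had a median of 2.55 on the log2 scale, against 0.04 over all tested genes. These counts and the median include Mt2 and are a description. In bulk libraries fewer cells of a type and less RNA per cell cannot be told apart, and levels below are averages over all cells of a library. Levels are CPM, the usual counts-per-million scale, on TMM-scaled library totals.

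**Figure D1:**
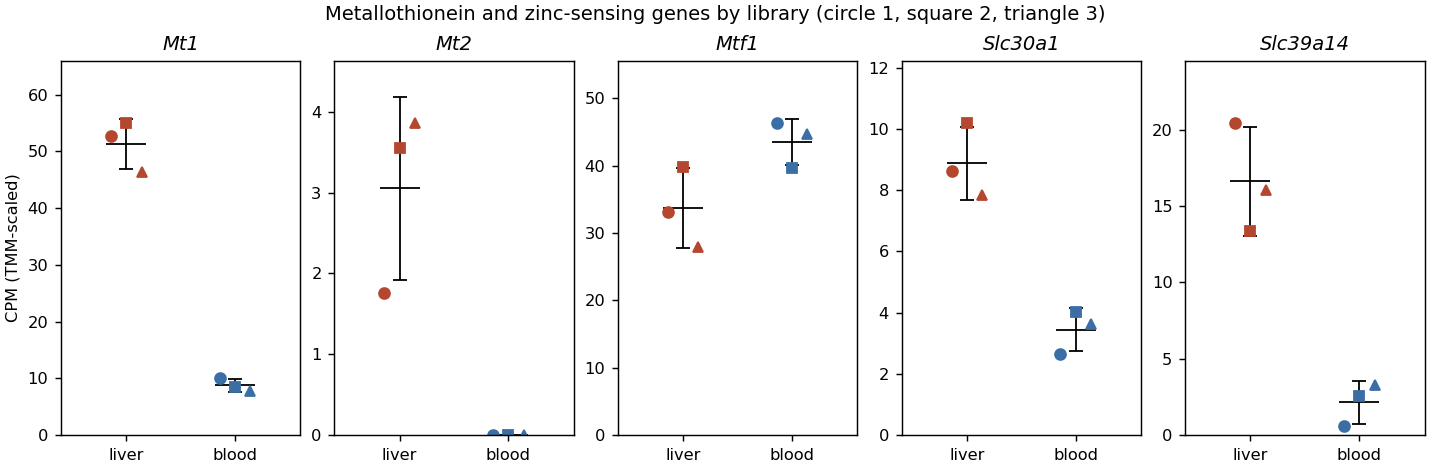
CPM of the 5 genes (y axes from 0, scaled per gene) in the 3 liver and 3 blood libraries; points are libraries, horizontal bars the mean and whiskers the SD. Liver lies above blood without overlap for Mt1, Mt2, Slc30a1 and Slc39a14, while for Mtf1 liver 2, at 39.8 CPM, meets blood 2, at 39.7 CPM.

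Mt1, on chromosome 8 from 94179082 to 94180327 (GRCm38, plus strand), was the metallothionein gene that both groups expressed. It had 52.7, 54.9 and 46.3 CPM in liver 1, 2 and 3, against 9.99, 8.50 and 7.79 CPM in blood 1, 2 and 3. Both groups were tight, with a coefficient of variation of 8.71% in liver and 12.8% in blood. The log2 fold change was 2.55 ± 0.22 (SE), with an adjusted p of 0.000146 by edgeR's quasi-likelihood test. The call held in all 18 alternative analyses, with log2 fold changes of 2.43 to 2.70. In the order of rises Mt1 was at place 931 of the 13458 genes tested.

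Mt2, its neighbour on the same strand from 94172664 to 94173568, ends 5513 bases before Mt1 begins. It had 27, 59 and 60 counts in liver 1, 2 and 3, or 1.76, 3.55 and 3.86 CPM, and 0 counts in each blood library. At the depth of the blood libraries 3 counts correspond to 0.201 to 0.263 CPM. Against a floor of 3 counts over the pooled blood group the pooled liver level was at least 41.2-fold higher. That bound covers counting error only and not the spread between libraries. The fitted fold change, which depends on the prior count, is not given as a size. Since only the liver counts brought Mt2 into the test, its call adds nothing to these counts. An antisense gene model, Gm45774, overlaps Mt2 exons on the opposite strand and had 2, 33 and 12 counts in liver and 0, 0 and 3 in blood. The sources used here do not say whether counting used strand, so reads of the 2 models cannot be told apart, and liver 2 had the most antisense counts.

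The metallothionein pair was unequal in both tissues. For every 100 Mt1 counts there were 3.35, 6.47 and 8.33 Mt2 counts in liver 1, 2 and 3, a mean of 6.05 ± 2.52 (SD, n = 3). In blood 0 Mt2 counts stood beside 139, 97 and 116 Mt1 counts, which allows up to 2.16, 3.09 and 2.59 Mt2 counts per 100 Mt1 counts in single libraries. Pooled over the group, 0 beside 352 Mt1 counts allows up to 0.852 per 100, below the ratio of each liver library, a limit that covers counting error only. The ratios of the groups did not overlap, with an exact two-sided permutation p of 0.1, the smallest that 3 against 3 libraries allow. Mt2 was tested only because of its liver counts and was at 0 in blood, so this p adds nothing to the counts. The ratio of liver 1 was the nearest to the limits of single blood libraries. The remaining metallothionein genes, Mt3 and Mt4, which are known from brain and from stratified epithelium, had 0 counts in every library.

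Slc39a14, on chromosome 14 from 70303469 to 70351425 (minus strand), had the largest fitted fold change of the 4 genes that had counts in both groups. It had 20.4, 13.4 and 16.1 CPM in liver 1, 2 and 3, against 0.575, 2.54 and 3.29 CPM in blood 1, 2 and 3. The blood libraries were spread, with 8, 29 and 49 counts and a coefficient of variation of 65.7%, while liver varied by 21.4%. The log2 fold change was 2.96 ± 0.54 (SE), with an adjusted p of 0.0038 by edgeR's quasi-likelihood test. It was 2.46 without blood 1 and 3.38 without blood 3, and the call held in all 18 alternatives. The metallothioneins had no common order of the libraries, and Slc39a14 shared the order of neither. In liver Slc39a14 was highest in liver 1, Mt1 in liver 2 and Mt2 in liver 3. Blood 1 was lowest for Slc39a14 and highest for Mt1, while Mt2 was at 0 in blood. These are ranks of 3 libraries and were not tested.

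Slc30a1, on chromosome 1 from 191906767 to 191913247 (plus strand), rose least of the 4. It had 8.62, 10.2 and 7.85 CPM in liver 1, 2 and 3, against 2.66, 4.03 and 3.63 CPM in blood 1, 2 and 3. The log2 fold change was 1.37 ± 0.34 (SE), with an adjusted p of 0.0137 by edgeR's quasi-likelihood test. The files hold 2 rows for this symbol with identical values, so reads were split evenly between them, and the row in the reference annotation was kept. With both rows summed the level was 17.8 ± 2.38 (SD) CPM over the 3 liver libraries and 6.88 ± 1.41 (SD) CPM over the 3 blood libraries, and the adjusted p was 0.00692. The call was lost without blood 1, where the log2 value was 1.17 (adjusted p = 0.055 by the same test). Without liver 3 and blood 1 together it was lost as well, at 1.27 and an adjusted p of 0.0716. An antisense model, 1700034H15Rik, overlaps its exons and had at most 9.78 expected counts in any library.

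Mtf1, on chromosome 4 from 124802104 to 124849800 (plus strand), did not pass the test. It had 33.2, 39.8 and 28.0 CPM in liver 1, 2 and 3, against 46.3, 39.7 and 44.7 CPM in blood 1, 2 and 3. The groups met at liver 2 and blood 2. The log2 fold change was -0.37 ± 0.21 (SE), with an adjusted p of 0.194 by edgeR's quasi-likelihood test and 0.124 to 0.563 over 18 alternatives, each with a negative value. Expression of the sensor's mRNA says nothing of MTF1 protein or its place in the cell, which these data do not measure. A protein-coding gene model on the opposite strand, 1110065P20Rik, overlaps Mtf1 exons and had 21.7 to 71.2 expected counts per library.

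Between genes, levels were compared per kilobase of the longest consensus coding transcript, in CPM per kb. In liver Mt1 stood first at 93.5 ± 8.14 CPM per kb (SD, n = 3), far above the spread of the others. Mt2 followed at 5.99 ± 2.22, Mtf1 at 4.41 ± 0.777, Slc39a14 at 3.38 ± 0.723 and Slc30a1 at 1.69 ± 0.227 CPM per kb. With both of its rows Slc30a1 reached 3.39 ± 0.453 CPM per kb in liver. Mt2 and Mtf1 lay within the spread of their libraries, as did Slc39a14 and the summed Slc30a1. In blood the order was Mt1 at 15.95 ± 2.05, Mtf1 at 5.71 ± 0.451, Slc30a1 at 0.656 ± 0.134 and Slc39a14 at 0.433 ± 0.285 CPM per kb, with Mt2 at 0. Slc30a1 with both rows was at 1.31 ± 0.269 CPM per kb in blood, and with its single row it did not differ from Slc39a14 beyond the spread of the libraries. In liver Slc39a14 lay above the single row of Slc30a1 in every library.

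The genes of other cells in these libraries touch these results, since hepatocytes are rich in metallothionein and ZIP14 transcripts. Of 11 hepatocyte markers 7 were tested and 5 were called higher in liver. Their summed level was 18.5, 149.5 and 245.2 CPM in liver 1, 2 and 3, and 8.19, 0.351 and 0.806 CPM in blood 1, 2 and 3. Albumin (Alb), a plasma protein, was part of it, with 7.25, 73.2 and 148.3 CPM in liver and 2.44, 0.0876 and 0.470 CPM in blood. Cyp2e1 was at 0 in liver 1, blood 1 and blood 3, and Apoc3 at 0 in blood 2 and 3. The ratio of liver 3 to liver 1 was 13.2 for the hepatocyte sum. It was 0.879 for Mt1, 0.911 for Slc30a1, 0.787 for Slc39a14 and 2.19 for Mt2. Over the liver libraries Mt2 took the order of the hepatocyte sum, lowest in liver 1 and highest in liver 3, while Mt1 and Slc30a1 were highest in liver 2 and Slc39a14 in liver 1. Without liver 3 the log2 fold change was 2.61 for Mt1, 1.45 for Slc30a1 and 2.98 for Slc39a14. The part of hepatocyte RNA in the results of Mt1, Mt2, Slc30a1 and Slc39a14 was not tested.

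**Figure D2:**
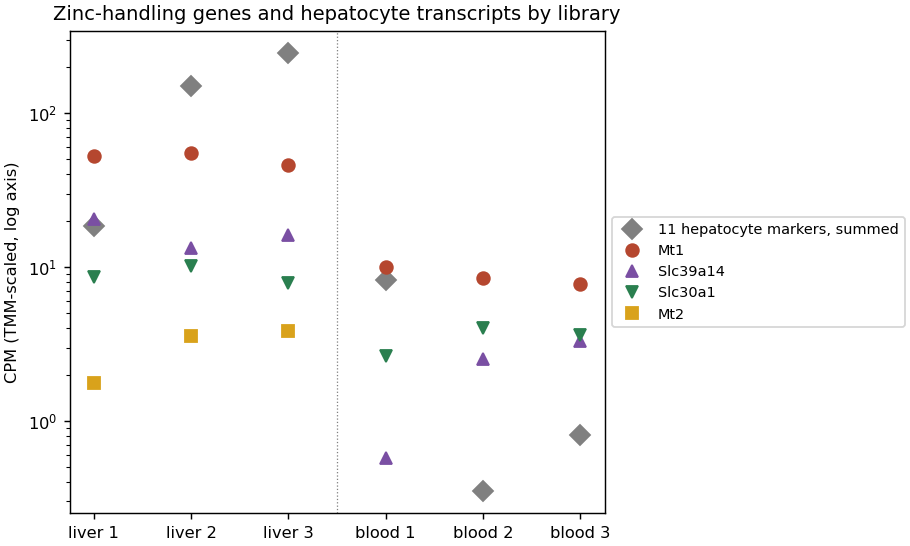
CPM per library on a log axis for 4 of the genes and for the sum of 11 hepatocyte markers, liver libraries left and blood libraries right of the dotted line. Mt2 has 0 counts in blood and is not drawn there. In liver the hepatocyte sum spans 18.5 to 245.2 CPM and Mt1 46.3 to 54.9 CPM.

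Other cell markers moved with the groups too. Of 7 monocyte markers 6 were higher in liver, with sums of 781.8 to 1215 CPM in liver and 72.8 to 147.4 CPM in blood. Fn1 was the largest part of these sums, with means of 657.0 CPM in liver and 42.0 CPM in blood. Ly6c2 was not called, at means of 13.92 CPM in liver and 17.63 CPM in blood. Of 12 Kupffer cell and macrophage markers 11 were tested, 5 were higher and 0 lower. Their sums were 473.1 to 855.1 CPM in liver and 327.9 to 508.1 CPM in blood. Csf1r, not called, was the largest part, with means of 360.5 CPM in liver and 325.8 CPM in blood. Among the 5, Clec4f had 17.0, 5.12 and 59.8 CPM in liver and 0.359, 0 and 0 CPM in blood. Of 8 liver endothelial markers 5 were tested, 4 were higher and 0 lower. Their sums were 22.7 to 50.6 CPM in liver and 14.9 to 19.1 CPM in blood. Pecam1, not called, was the largest part in blood, at a mean of 14.29 CPM, against 10.55 CPM in liver. Among the 4, Ptprb and Cdh5 had means of 4.93 and 9.14 CPM in liver and 0.118 and 0.331 CPM in blood. Of 6 dendritic cell markers 4 were higher, with sums of 32.3 to 87.4 CPM in liver and 7.19 to 16.7 CPM in blood. No marker of these 4 lists was at 0 in all libraries. Platelet markers went the other way, with 3 of 6 tested lower and sums of 10.7 to 17.95 CPM in liver and 37.6 to 219.5 CPM in blood. Neutrophil markers were present in all libraries, with sums of 9746 to 16900 CPM in liver and 24280 to 35650 CPM in blood. Of 14 tested, 1 was higher and 9 were lower in liver. Among the 9 were the genes of the calprotectin subunits. S100a8 had means of 1013 CPM in liver and 2661 CPM in blood (adjusted p = 0.017 by edgeR). S100a9 had means of 2133 CPM in liver and 6953 CPM in blood (adjusted p = 0.00827 by edgeR). Red cell transcripts ran from 142.9 to 2730 CPM in liver and from 367.3 to 33700 CPM in blood, highest in blood 1. The part of these cells in the rises of Mt1, Slc30a1 and Slc39a14 was not tested. Total counts ran from 13054673 to 17579669 per library.

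Beyond these genes, the zinc transporter families had members that rose among exporters and among importers. Of 10 exporter genes (Slc30a) 5 were tested and only Slc30a1 rose, and of 14 importer genes (Slc39a) 10 were tested and 4 rose. Together 5 of 15 rose, with a median log2 fold change of 0.22, and 0 fell by edgeR's test, by DESeq2 and by limma voom, although 1 gene fell at an unadjusted p under 0.05. Without the pair examined above, 3 of 13 rose, with a median of 0.10. Against the background of 17.4% called higher, 5 of 15 and 3 of 13 are counts over few genes. The list was chosen with earlier results of these data known.

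Slc39a6, encoding the importer ZIP6, had 20.1, 23.3 and 14.1 CPM in liver 1, 2 and 3, against 8.84, 5.26 and 7.72 CPM in blood 1, 2 and 3. Its groups did not overlap, and it rose 2.63-fold with an adjusted p of 0.00967 by edgeR's test, a call that held in all 18 alternatives. Slc39a1, the plasma membrane importer ZIP1, had 49.0, 77.0 and 51.0 CPM in liver, against 23.2, 34.8 and 26.2 CPM in blood. It rose 2.11-fold (adjusted p = 0.0109 by edgeR), and the call was lost without blood 1 (adjusted p = 0.0512). Slc39a10, encoding ZIP10, a gene known to be repressed by MTF1 in mouse cells, had 7.05, 3.98 and 7.14 CPM in liver, against 2.37, 1.67 and 2.42 CPM in blood. It rose 2.80-fold (adjusted p = 0.0234 by edgeR), but leaving out any library except liver 2 ended the call (adjusted p 0.0502 to 0.0781). Without blood 1 therefore 2 zinc transporter genes remained called, Slc39a14 and Slc39a6.

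Importers that were not called included Slc39a7, which releases zinc from the endoplasmic reticulum, with 75.4, 88.6 and 72.9 CPM in liver and 89.2, 61.3 and 94.1 CPM in blood. Slc30a7, a Golgi zinc transporter, had 21.6, 18.1 and 29.0 CPM in liver and 41.2, 27.1 and 39.0 CPM in blood, with overlapping groups. Its log2 fold change of -0.64 was not called (adjusted p = 0.0857 by edgeR). It passed as lower without liver 3 (adjusted p = 0.0499), without blood 2 (0.0489) and when replicate number was a block (0.0369). The pancreatic islet transporter Slc30a8 and the manganese exporter Slc30a10 had 0 counts in all libraries. Slc39a8, the closest relative of Slc39a14, had too few counts to be tested, 31 in all from liver and 10 in all from blood.

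**Figure D3:**
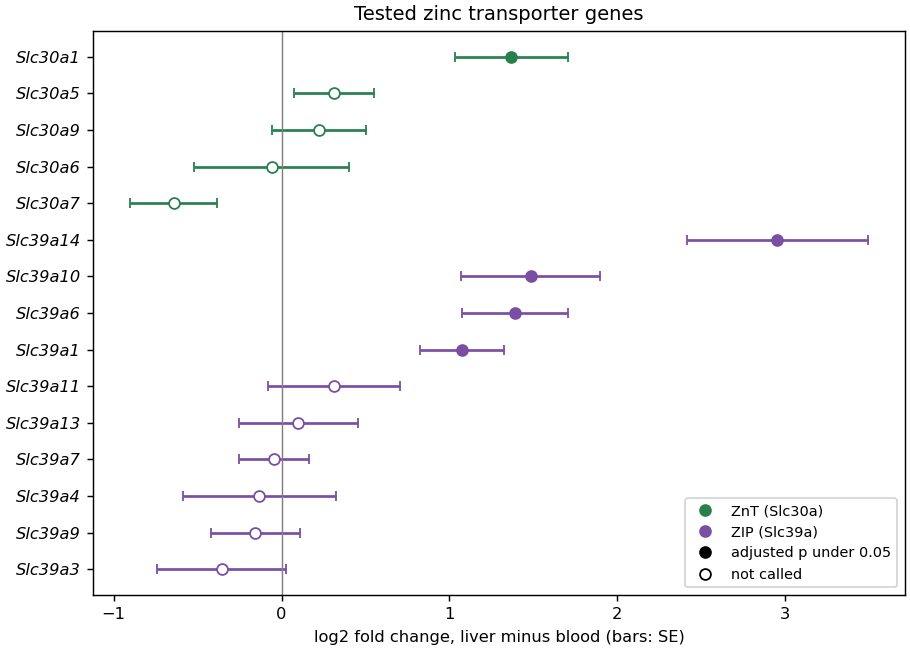
Log2 fold change of liver over blood (x axis, bars are SE) for the 15 tested zinc transporter genes, exporters above importers; filled points passed an adjusted p under 0.05. The 5 filled points all lie right of 0, with Slc39a14 at 2.96 farthest out.

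A list of other genes linked to MTF1 shares Slc39a10 with the importers. Of its 6 genes 5 were tested, 2 rose and 1 fell, and the median log2 value was 1.57, that of Selenow. Because MTF1 is known to repress Slc39a10, the counts and the median cannot be read as a direction of MTF1 action. Gclc, which makes the precursor of glutathione, had 46.3, 31.6 and 44.5 CPM in liver, against 9.27, 6.83 and 8.86 CPM in blood, and was higher at an adjusted p of 0.000489 by edgeR. Slc40a1, the iron exporter ferroportin, had 245.9, 279.0 and 309.2 CPM in liver, against 694.7, 706.4 and 773.5 CPM in blood, lower at an adjusted p of 0.00115. The other gene that rose was Slc39a10, described above, so that outside the transporter families 1 of 4 tested genes rose and 1 fell. With 17.4% called higher and 14.2% called lower over all tested genes, such counts over few genes say little. The selenoprotein genes Selenow and Selenoh were not called, at adjusted p of 0.325 and 0.0714. Selenow, with 0 counts in blood 3, had a log2 value of 1.57, which was 0.93 without blood 3, 1.04 without liver 1 and 2.52 without blood 1. Pgf, a placental growth factor gene, had 5 counts in all from liver and 0 from blood.

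Among 10 genes of the pathways that regulate metallothionein genes, all were tested, 2 rose and 5 fell, and their median on the log2 scale was -0.55. The shares over all tested genes were 17.4% higher and 14.2% lower, and the counts of this list are over few genes. The 2 that rose were Il6st and Nfe2l2. Il6st, encoding gp130, the shared signalling receptor of the interleukin 6 family, had 34.7, 19.0 and 41.7 CPM in liver, against 4.31, 2.80 and 0.940 CPM in blood. It was 11.9-fold higher (adjusted p = 0.00195 by edgeR). Il6ra, the ligand-binding chain, had 202.7, 168.1 and 211.2 CPM in liver, against 450.5, 385.3 and 447.4 CPM in blood, and was lower (adjusted p = 0.00236). The receptor chains thus moved in opposite directions. Stat3, the factor downstream of them, had 556.2, 625.7 and 469.2 CPM in liver and 562.7, 659.8 and 554.5 CPM in blood, and was not called (adjusted p = 0.717). Nfe2l2, encoding the oxidative stress factor NRF2, had 522.1, 629.2 and 426.5 CPM in liver, against 146.5, 212.6 and 154.7 CPM in blood, and rose 3.07-fold (adjusted p = 0.0013).

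The 5 that fell were Il6ra, the 3 glucocorticoid genes of the list and Usf1. Nr3c1, the glucocorticoid receptor, had 209.9, 165.3 and 169.5 CPM in liver, against 297.8, 347.9 and 306.4 CPM in blood, with a log2 fold change of -0.81 (adjusted p = 0.0102 by edgeR), which was not called without liver 3 and blood 1 together (0.0597). Tsc22d3, known as GILZ and induced by glucocorticoids, had 113.9, 123.6 and 108.2 CPM in liver, against 558.4, 441.0 and 519.5 CPM in blood, a log2 fold change of -2.14 (adjusted p = 0.000167). Fkbp5, also glucocorticoid-induced, had 192.0, 172.3 and 172.6 CPM in liver, against 325.8, 338.9 and 199.0 CPM in blood. Its call (adjusted p = 0.0448 by edgeR) was lost without any single library except blood 3 (0.086 to 0.116). It held in 9 of 18 alternatives and was also lost by limma voom (0.0547) and with upper quartile scaling (0.072). Usf1, whose product binds the mouse Mt1 promoter, had 14.4, 25.8 and 27.1 CPM in liver, against 74.6, 76.1 and 67.1 CPM in blood, a log2 fold change of -1.69 (adjusted p = 0.0017). Usf2, its partner, was not called (adjusted p = 0.0979), and passed as lower only when replicate number was a block (0.0494). Hif1a had an adjusted p of 0.0504 by edgeR and overlapping groups, and was called higher in 8 of 18 alternatives. Among them were DESeq2 (0.0229), limma voom (0.0345), the replicate block (0.00354) and the fit without blood 2 (0.00936). No other left-out library gave a call.

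**Figure D4:**
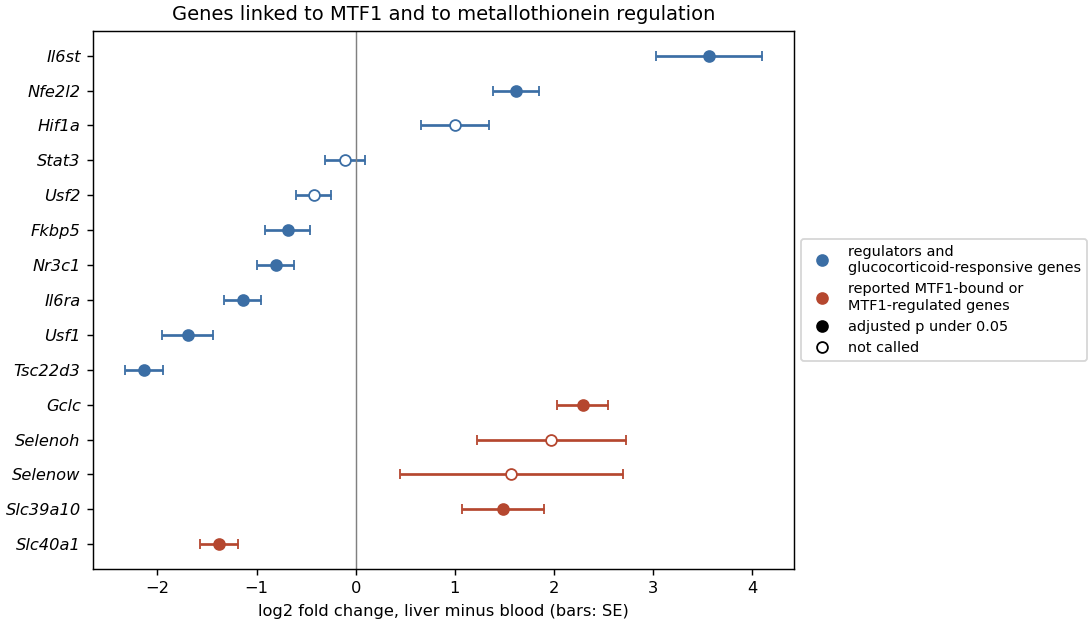
Log2 fold change of liver over blood (x axis, bars are SE) for 10 regulators and glucocorticoid-responsive genes (top) and 5 genes linked to MTF1 (bottom); filled points passed an adjusted p under 0.05. Il6st, at 3.57, and Tsc22d3, at -2.14, mark the ends of the upper group.

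Copper and iron transport genes were examined because metallothioneins bind copper and ZIP14 carries iron. Of 11 copper genes 9 were tested, 2 rose and 0 fell by edgeR, DESeq2 or limma voom. None fell at an unadjusted p under 0.05 either, and the median log2 value was 0.39. Over all tested genes 17.4% were called higher and 14.2% lower, so 2 and 0 of 9 are counts over few genes. The copper importer Slc31a1 had 18.2, 41.5 and 19.8 CPM in liver, against 4.53, 12.4 and 10.1 CPM in blood (adjusted p = 0.0256 by edgeR). The call was lost without liver 2, blood 1 or blood 3 (0.0605 to 0.0985). Its relative Slc31a2 had 17.7, 31.3 and 27.1 CPM in liver, against 12.1, 14.5 and 13.4 CPM in blood (adjusted p = 0.029), lost without any library except liver 1 (0.0572 to 0.105). Atp7a, the copper exporter, had 75.2 to 100.6 CPM in liver and 68.0 to 108.2 CPM in blood and was not called. Steap4, a metal reductase, had 20.2, 300.4 and 7.27 CPM in liver and 33.4, 867.3 and 17.9 CPM in blood, so that the libraries numbered 2 stood apart in both groups. Its log2 fold change was -1.49 and not called (adjusted p = 0.612), -4.49 without liver 2 and 2.07 without blood 2, and with replicate number as a block it was -1.19 and called (adjusted p = 0.00313).

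Of 10 genes of iron and manganese transport 9 were tested, 3 rose and 3 fell, and the median log2 value was -0.25. Beside the 17.4% called higher and 14.2% called lower over all tested genes, these too are counts over few genes. Slc11a2, the divalent metal importer DMT1, had 6.14, 3.98 and 6.75 CPM in liver, against 0.862, 1.49 and 0.134 CPM in blood. Its log2 fold change was 2.78 (adjusted p = 0.014 by edgeR) and 3.46 without blood 2, with 31 counts in all from blood, and it was not called without liver 3 and blood 1 together (0.0891). Tfrc, the transferrin receptor, had 28.8, 32.9 and 44.0 CPM in liver, against 6.47, 12.1 and 14.03 CPM in blood, a 3.24-fold rise (adjusted p = 0.00443). Mcoln1, a lysosomal channel that passes iron and zinc, rose 1.86-fold (adjusted p = 0.031), a call that any 1 of liver 2, liver 3, blood 2 and blood 3 ended when left out (0.0503 to 0.103). The mitochondrial iron importer Slc25a37 had 62.2, 84.9 and 51.6 CPM in liver, against 269.4, 227.4 and 106.0 CPM in blood (adjusted p = 0.00863). It is also an erythroid gene, and the blood libraries took the order of the red cell transcripts in them. Its call was lost without liver 3 and blood 1 together (0.0679). Atp2c1, a Golgi pump for calcium and manganese, had 74.9, 82.8 and 86.1 CPM in liver, against 149.8, 179.1 and 173.7 CPM in blood (adjusted p = 0.00238), and ferroportin, given above, was the third gene that fell.

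The genes whose log2 CPM followed each of the 5 most closely over the 6 libraries were listed, as a description without a test. They were picked by r from 6392 or 6393 other genes with a mean of at least 10 CPM. With 3 libraries per group, a difference between liver and blood alone can give a high r. For Mt1 they were Slc24a1, Tubb6 and Cd69, with Pearson r of 0.9992, 0.9988 and 0.9981. Slc24a1 had 162.9, 187.6 and 135.8 CPM in liver, against 14.4, 12.4 and 11.8 CPM in blood. For Mt2, which had 0 counts in every blood library, they were Mreg, Prpf31 and Gtpbp4 (r of 0.9949 to 0.9963). For Slc30a1 they were Itpkc, Rn7s1 and Hdlbp (0.9963 to 0.9978). For Slc39a14 they were Cnot11, Uty and Gmps (0.9873 to 0.9941). All were lowest in blood 1 as Slc39a14 was, which the choice by r favours. Mtf1 was followed by Bcas3, Spag7 and Vta1 (0.9849 to 0.9970), with Bcas3 at 21.5, 25.6 and 18.7 CPM in liver and 29.5, 24.8 and 28.3 CPM in blood.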

How the data were processed

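Values are the authors' deposited expected counts for each gene. Per the submitters' processing notes the tools were STAR, RSEM, FastQC 0.11.5 and limma, with build GRCm38. The strand setting and the versions of STAR and RSEM were not given in the sources used here. The labels' protocols give paired-end sequencing of stranded, low-input total-RNA libraries. Each file has 53090 rows, of which 98.9% matched GENCODE M21, the source of coordinates and transcript lengths. Where a symbol had more than 1 row (213 symbols), the row with the largest summed count was kept for it.

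Expected counts were rounded to whole numbers, filtered with filterByExpr (minimum count 10, minimum total 15) and scaled by TMM. The robust quasi-likelihood F test of edgeR 4.0.16 in R 4.3.3 compared liver with blood, with Benjamini-Hochberg adjustment over 13458 genes. Standard errors derive from the F statistic. The test was tried on simulated data, but no outcome is given here, so the trial does not vouch for the test on these libraries. Alternatives used DESeq2 1.42.0, voom of limma 3.58.1, other scalings and filters, a replicate block and left-out libraries, and a further pair, summing repeated symbols and adding antisense counts to Mt2, was chosen after seeing the data. Before taking log2 of the Mt2 to Mt1 ratio 0.5 was added to each count, since Mt2 was 0 in blood. Correlations of log2 CPM also used 0.5. Libraries of a group differed far beyond counting noise (chi-square over its degrees of freedom, 52.1 to 79.0).

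The 5 genes and the lists were chosen with earlier results of these data known. The text names the 5 genes, every called and some uncalled genes of the pathway lists, for each of the 5 the 3 named genes with the highest correlation, and defining markers of other cells. Levels are TMM-scaled CPM, with floors and limits from counting error only.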

Additional observations from a re-analysis of the deposited data

How the results depend on the processing

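The calls of Mt1 and Slc39a14 held in 18 of 18 alternatives. Mt1 had log2 fold changes of 2.43 to 2.70, Slc39a14 of 2.46 to 3.38 and Mtf1 of -0.52 to -0.23. The fitted value of Mt2, 6.29 to 8.74, is no size, because blood was at 0, and its calls say nothing of stability, because it entered the test through liver alone. With a minimum count of 50 it was not tested. With 1 library left out at a time, Slc30a1 ran from 1.17 to 1.47 and lost its call without blood 1 (adjusted p = 0.055 by edgeR). Without liver 3 and blood 1 together it was 1.27 and not called (adjusted p = 0.0716), 2 zinc transporter genes were called higher in place of 5, and 1195 genes were called lower in liver in place of 1916. Leaving out 1 library gave 2 to 6 zinc transporter genes higher and 0 to 1 lower. The difference in the Mt2 to Mt1 log2 ratio is no size either, since it depends on the 0.5 added to counts of 0. It was 3.74, or 3.46 to 4.11 with 1 library left out, and 3.13 with the antisense counts added to Mt2, an alternative chosen after seeing the data.

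Samples of the same number deviated together with r of 0.0541, 0.156 and 0.0225, and samples of different number with r of -0.175 to 0.12. These values cannot decide whether the numbers mark pairs, and the main test did not take them as pairs. With the replicate block 2322 genes were called higher and 2312 lower, and 1 zinc transporter gene, Slc30a7, was called lower in place of 0. Other scalings moved the median of all genes by at most 0.0868 on the log2 scale. Depth limits Mt2, Slc39a14 and Slc11a2 in blood, where counts are few.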
